A study of Mus musculus with 10 samples.

Results

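The genes described here are 38 markers of the oligodendrocyte lineage and of myelin, read in RNA of the ventral hippocampus (vHpc) of ovariectomized (OVX) mice. They were chosen by name as markers of the lineage, with earlier results of these data known. The set comprises 2 markers of oligodendrocyte precursors, 3 of forming oligodendrocytes, 5 transcription factors of the lineage and 28 genes of mature oligodendrocytes and their myelin. All 38 were among the 24421 genes of the table, and all 38 passed the minimum set for testing, a mean of 0.5 CPM, which 15081 genes reached. CPM are the reads of a gene for every 1000000 that a library had on genes.

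Oligodendrocytes wrap axons in myelin, a stack of lipid-rich membrane that speeds conduction and feeds the axon. They arise throughout adult life from dividing precursors that carry the PDGF receptor PDGFRA and the proteoglycan NG2. These cells pass through a short premyelinating stage marked by GPR17, ENPP6 and BCAS1, and then switch on the genes of myelin proteins and myelin lipids under the control of OLIG, SOX10 and MYRF factors. In the hippocampus, myelin lies mainly in the alveus, the fimbria and the fibre layers that cross the region.

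The study asked how estradiol (E2) and the Met allele of brain-derived neurotrophic factor (BDNF Val66Met) shape gene expression in the vHpc. Female C57BL/6 WT mice and mice heterozygous for a Val66Met knock-in (Het-Met, 1 copy of the Met allele in every cell) lost their ovaries at an age of 70 to 80 days, recovered for 2 weeks, and then drank either vehicle or E2 for 6 weeks. The E2 water was 300 nM, about 0.7 µg per day, and both waters held 0.1% ethanol. RNA of 2 animals was pooled for each library, so a library is a pair of animals and the spread between libraries is that between pairs. The libraries analysed here numbered 2 from vehicle-treated WT mice (replicates 1 and 3, called WT vehicle), 2 from WT mice on E2 (replicates 1 and 2, WT E2), 3 from vehicle-treated heterozygotes (Het-Met vehicle) and 3 from heterozygotes on E2 (Het-Met E2). Library values are given in that order and by replicate number. All animals were OVX, so no group shows the intact ovarian cycle, and the mutation was carried by all cells and not by oligodendrocytes alone. Depth was 19820184 to 23267410 reads on genes per library, which made a single read worth 0.0430 to 0.0505 CPM.

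The 8 markers of hippocampal subfields were read in all 10 libraries, with a summed level of 757 to 921 CPM, among them Prox1 of dentate granule cells at a mean of 48.9 CPM and Wfs1 of CA1 at a mean of 179.8 CPM. Single subfield markers varied more than their sum. Their log2 fold changes between genotypes ran from −0.69 to 0.43 under vehicle and from −0.91 to 0.20 under E2, with 0 called. In the test of whether the E2 effect differs between genotypes, 1 of the 8 was called, against 0.0729% of all genes. Whether the tissue came from the ventral part, or held the same subfields in every library, was not checked. Libraries differed widely in markers of choroid plexus, the secretory tissue of the ventricles beside the hippocampus. The summed level of 12 choroid plexus markers, none of which was at 0 in any library, was 154 and 1092 CPM in WT vehicle, 2534 and 1917 CPM in WT E2, 3274, 1469 and 1938 CPM in Het-Met vehicle and 1562, 442 and 267 CPM in Het-Met E2 libraries. All 12 had log2 fold changes above 0 with E2 in OVX WT mice (median 1.98) and below 0 with E2 in OVX Het-Met mice (median −1.20), 0 of them called. The 8 markers of ependyma took the same directions in 8 of 8 genes and in 6 of 8 genes. Several of the 38 genes are also made outside the lineage, Trf and Car2 in choroid plexus, Cldn11, Apod, Lpar1 and Pdgfra in meningeal fibroblasts, and Cspg4 in pericytes. The part of that tissue in their levels was not tested.

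The precursor markers were Pdgfra and Cspg4. Pdgfra, the receptor through which PDGF drives precursor division, stood at 63.2 and 75.6 CPM in WT vehicle, 73.0 and 72.7 CPM in WT E2, 61.8, 77.6 and 64.0 CPM in Het-Met vehicle and 65.3, 67.0 and 69.3 CPM in Het-Met E2 libraries. Cspg4, the core protein of NG2, stood at 34.5 and 29.3 CPM in WT vehicle, 31.8 and 34.9 CPM in WT E2, 31.1, 31.4 and 28.7 CPM in Het-Met vehicle and 30.5, 27.9 and 28.4 CPM in Het-Met E2 libraries. For both genes the highest library held less than 1.3 times the lowest, 1.26-fold for Pdgfra and 1.25-fold for Cspg4. Between genotypes under E2, every Het-Met library lay below both WT libraries for both genes, as in 14.7% of all genes tested.

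The markers of forming oligodendrocytes did not move as a block. Gpr17, a receptor that holds cells at the premyelinating stage, was read at 54.2 and 55.4 CPM in WT vehicle, 56.8 and 62.1 CPM in WT E2, 45.9, 65.8 and 53.8 CPM in Het-Met vehicle and 49.7, 54.0 and 58.9 CPM in Het-Met E2 libraries. Its highest and lowest values, 65.8 and 45.9 CPM, both fell in Het-Met vehicle libraries, so the group with the widest spread held all the others within it. Enpp6, a choline phosphodiesterase of newly forming cells and the lowest of the 38 genes per length of exon, was read at 3.47 and 4.86 CPM in WT vehicle, 4.80 and 5.33 CPM in WT E2, 3.04, 3.73 and 4.36 CPM in Het-Met vehicle and 4.36, 4.75 and 4.36 CPM in Het-Met E2 libraries, from 64 to 124 reads per library. Under E2 every Het-Met library was below both WT libraries, as in 14.7% of all genes tested. The log2 fold change was −0.16 (standard error 0.18, limma adjusted p = 0.755). Bcas1, a protein of early and mature myelin, stood at 207 and 163 CPM in WT vehicle, 161 and 148 CPM in WT E2, 160.5, 152 and 190.0 CPM in Het-Met vehicle and 176, 206 and 154 CPM in Het-Met E2 libraries. Bcas1 was lower in both WT E2 than in both WT vehicle libraries, as in 16.2% of all genes tested. The log2 fold change was −0.25 (standard error 0.14), and the gene was not called. In OVX Het-Met mice the groups overlapped.

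Among the transcription factors, the OLIG genes were the most even. Olig1, which promotes maturation and repair of myelin, was at 110.3 and 97.8 CPM in WT vehicle, 99.1 and 103 CPM in WT E2, 101, 97.9 and 98.8 CPM in Het-Met vehicle and 94.2, 102 and 90.9 CPM in Het-Met E2 libraries. Olig2, required to specify the lineage, was at 30.4 and 27.6 CPM in WT vehicle, 27.0 and 32.7 CPM in WT E2, 28.2, 28.4 and 25.4 CPM in Het-Met vehicle and 25.6, 30.9 and 25.8 CPM in Het-Met E2 libraries. The groups overlapped in every comparison for both genes, and the residual spread of Olig1 between libraries of a group, an SD of 0.07 on the log2 scale, was lower than that of most genes tested.

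Sox10, which activates myelin gene promoters in the lineage, was at 71.7 and 47.7 CPM in WT vehicle, 55.1 and 64.4 CPM in WT E2, 54.6, 55.6 and 61.7 CPM in Het-Met vehicle and 59.2, 65.4 and 55.6 CPM in Het-Met E2 libraries. The 2 WT vehicle libraries were its highest and lowest of all 10, so its level differed more within that group than between any group means. Nkx6-2, a homeodomain factor of mature oligodendrocytes, was the lowest of the factors per length of exon, at 3.49 CPM per kb, and averaged 7.18 ± 0.768 CPM (SD, n = 2) in WT vehicle mice. Its mean was 7.02 ± 0.0275 CPM (SD, n = 2) in WT E2, 5.65 ± 1.16 CPM (SD, n = 3) in Het-Met vehicle and 7.03 ± 0.888 CPM (SD, n = 3) in Het-Met E2 mice. Myrf, the membrane-bound factor that switches on the genes of central myelin (mm10 chromosome 19, 10208272 to 10240748), was at 77.2 and 70.4 CPM in WT vehicle, 71.3 and 76.97 CPM in WT E2, 53.2, 54.6 and 71.7 CPM in Het-Met vehicle and 60.1, 68.1 and 61.1 CPM in Het-Met E2 libraries. Of the Het-Met vehicle libraries, replicates 1 and 2 were far below both WT libraries and replicate 3 lay between them. Under E2 all 3 Het-Met libraries lay below both WT libraries, as in 14.7% of all genes tested.

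The highest levels per length were those of genes of mature oligodendrocytes. Divided by the length of all annotated exons of the gene, which makes genes with long alternative exons look low, the mean level of Mbp was 285 CPM per kb, followed by Plekhb1, a membrane-associated protein with a PH domain, at 90.8, Car2 (carbonic anhydrase II) at 84.2, Mal (a proteolipid that sorts myelin cargo) at 75.4 and Apod (a lipid-binding lipocalin) at 75.2 CPM per kb. The precursor markers were at 6.88 CPM per kb for Pdgfra and 2.59 for Cspg4, and Enpp6 was the lowest at 0.671 CPM per kb.

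Mbp encodes myelin basic protein, which zips the cytoplasmic faces of the membrane together. It was read at 2939 and 2174 CPM in WT vehicle, 2279 and 2284 CPM in WT E2, 2290.0, 2183 and 2798 CPM in Het-Met vehicle and 2298, 2752 and 2125 CPM in Het-Met E2 libraries. In 3 of the 4 groups 1 library stood well above the rest of its group, and the same libraries stand out in the plot of the 38 genes by library.

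**Figure D1:**
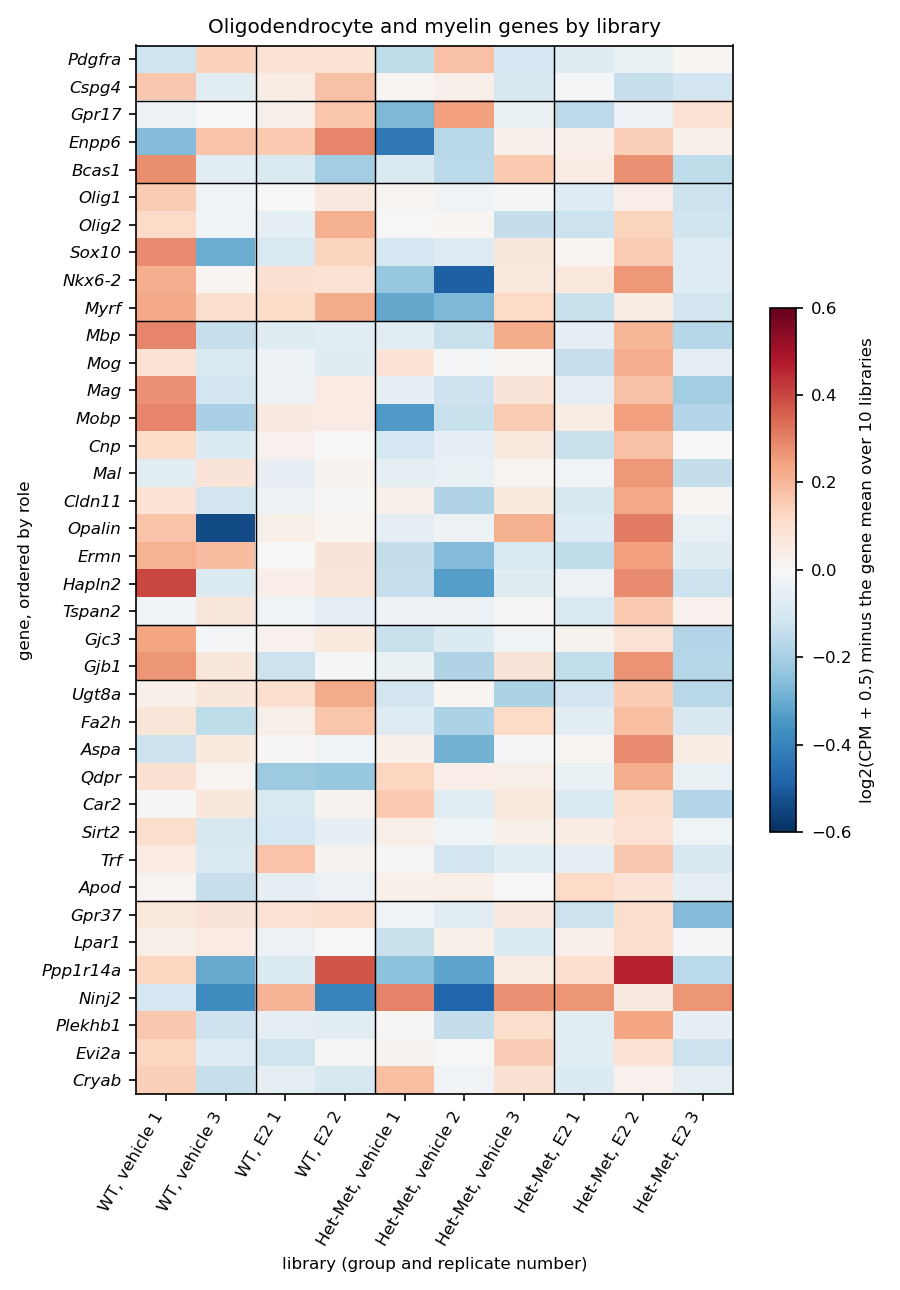
Heat map of the 38 genes (rows, ordered by role) in the 10 libraries (columns, ordered by group). Colour gives the log2(CPM + 0.5) of a gene in a library minus the mean of that gene over all 10 libraries, on a scale that ends at ±0.6; replicate 1 of WT vehicle, replicate 3 of Het-Met vehicle and replicate 2 of Het-Met E2 mice are high over most of the myelin genes.

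The other anchor genes of myelin likewise varied inside the groups. Mog, a glycoprotein of the outermost myelin surface, was at 46.4 and 41.0 CPM in WT vehicle, 42.8 and 41.5 CPM in WT E2, 46.3, 43.2 and 44.0 CPM in Het-Met vehicle and 39.6, 50.9 and 42.1 CPM in Het-Met E2 libraries. Mag, an adhesion protein of the innermost layer facing the axon, was at 161 and 123 CPM in WT vehicle, 131 and 138 CPM in WT E2, 129, 122 and 141 CPM in Het-Met vehicle and 128, 150.4 and 115 CPM in Het-Met E2 libraries. Mobp, a small basic protein of compact myelin, was at 239 and 171 CPM in WT vehicle, 203 and 202 CPM in WT E2, 155, 178 and 218 CPM in Het-Met vehicle and 202, 232 and 173 CPM in Het-Met E2 libraries. Replicate 2 of Het-Met E2 mice was the highest of its group for all 3 genes, and replicate 1 of WT vehicle mice was above replicate 3 for all 3. Cnp, a phosphodiesterase that keeps cytoplasmic channels open in myelin, was at 241 and 212 CPM in WT vehicle, 228 and 224 CPM in WT E2, 208, 216 and 233 CPM in Het-Met vehicle and 204, 253 and 224 CPM in Het-Met E2 libraries. In none of the 4 pairwise comparisons were the libraries of Mbp, Mog, Mag, Mobp or Cnp separated by group.

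Within its own group, replicate 2 of Het-Met E2 mice had the highest value in 33 of the 38 genes (26 of the 28 mature genes), against 29.7% of all genes tested. Replicate 1 of WT vehicle mice was above replicate 3 in 28 of 38, against 53.3% of all genes, and replicate 3 of Het-Met vehicle mice was the highest of 3 in 22 of 38, against 29.8%. The 2 WT E2 libraries differed least, with a median deviation of 0.02 (log2) from their mean. Summed over the 28 mature genes the level was 5796 and 4728 CPM in WT vehicle, 4903 and 4931 CPM in WT E2, 4916, 4703 and 5538 CPM in Het-Met vehicle and 4875, 5758 and 4627 CPM in Het-Met E2 libraries. This sum ranged 1.25-fold over the libraries. Its group means lay between 4917 ± 20.1 CPM (SD, n = 2) in WT E2 and 5262 ± 755 CPM (SD, n = 2) in WT vehicle mice, so the spread inside the WT vehicle group exceeded every difference between group means. In bulk RNA, fewer oligodendrocytes and less myelin RNA per oligodendrocyte cannot be told apart.

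The precursor sum did not follow the mature sum. Pdgfra and Cspg4 together were at 97.7 and 105 CPM in WT vehicle, 105 and 108 CPM in WT E2, 92.9, 109 and 92.7 CPM in Het-Met vehicle and 95.8, 94.9 and 97.7 CPM in Het-Met E2 libraries. Replicate 2 of Het-Met E2 mice, the second highest library for mature genes, was the lowest of its group for precursor genes. The precursor sum was highest in replicate 2 of Het-Met vehicle mice, which had the lowest mature sum of its group. The ratio of mature to precursor sums ran from 43.1 to 60.7 over the libraries, with group means of 52.2 ± 10.1 (SD, n = 2), 46.3 ± 0.663 (SD, n = 2), 51.9 ± 8.36 (SD, n = 3) and 53.0 ± 6.91 (SD, n = 3). The groups overlapped for this ratio except between genotypes under E2, where the Het-Met libraries, at 50.9, 60.7 and 47.4, lay above the WT libraries, at 46.8 and 45.8, the nearest of them by less than the spread within the Het-Met group.

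**Figure D2:**
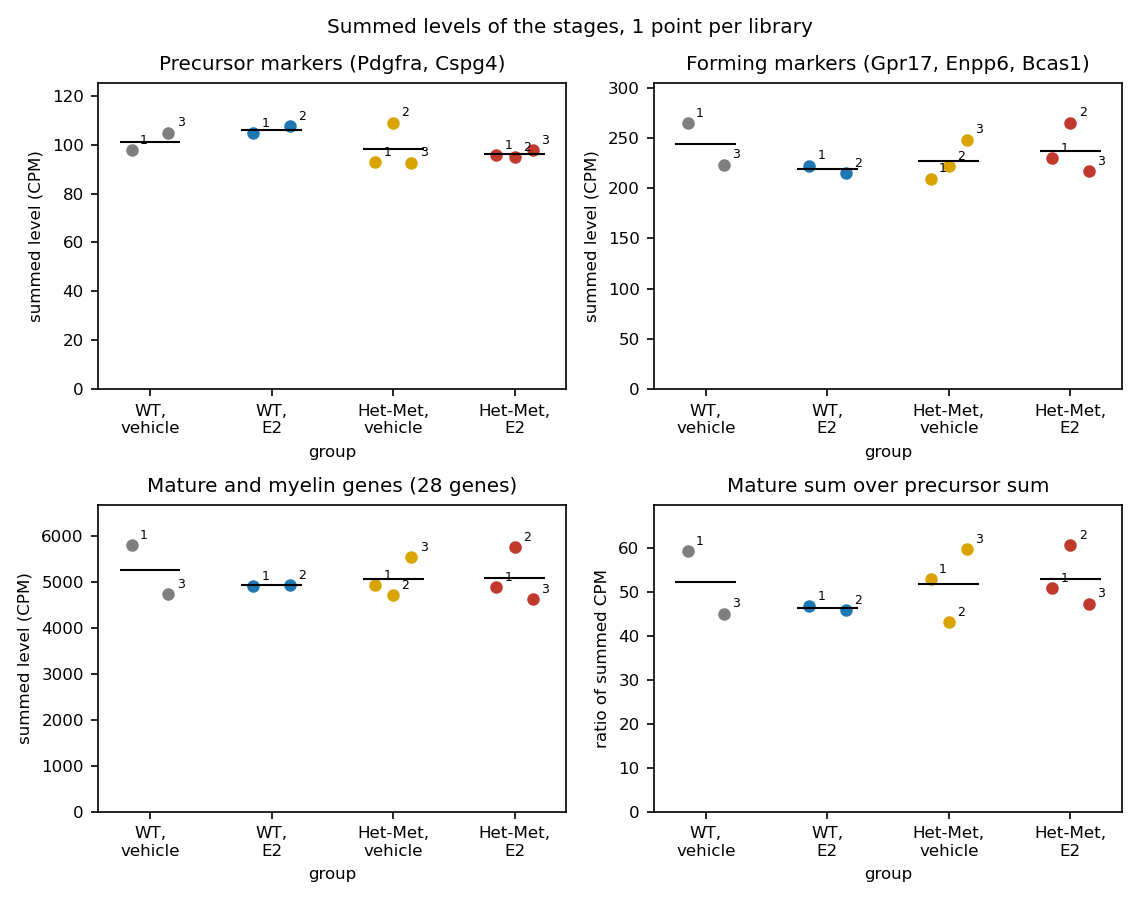
Summed CPM of precursor, forming and mature genes and the ratio of mature to precursor sums (panels, linear axes starting at 0) in each library, with points for libraries, small digits for their replicate numbers and bars for group means. In WT vehicle, Het-Met vehicle and Het-Met E2 mice the mature sum varied more between libraries than between group means. The WT E2 libraries were close together, at 4903 and 4931 CPM. The precursor sum stayed between 92.7 and 109 CPM.

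Of the further proteins of the sheath, Mal was read at 189 to 250.5 CPM over the 10 libraries, Cldn11, the claudin that seals the radial junctions of myelin, at 77.8 to 104 CPM, and Tspan2, a tetraspanin, at 102 to 121 CPM. Opalin, a sialoglycoprotein of the paranodal loops, ranged from 14.5 to 26.5 CPM, with its lowest value in replicate 3 of WT vehicle mice. The connexins Gjc3 and Gjb1, which couple oligodendrocytes to astrocytes, were at 37.0 to 49.5 CPM and 8.98 to 12.4 CPM, and each had its highest value in replicate 1 of that group or replicate 2 of Het-Met E2 mice.

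The enzymes and binding proteins were the most even of the mature groups, with a summed level that ranged 1.17-fold. Ugt8a, galactosylceramide synthase, which makes the main myelin glycolipid, was at 35.0 to 46.7 CPM, and Fa2h, which hydroxylates the fatty acids of that lipid, at 30.0 to 39.0 CPM. Aspa (aspartoacylase, which frees acetate from N-acetylaspartate for lipid synthesis) was at 9.03 to 13.6 CPM, Sirt2 (a tubulin deacetylase of myelin) at 122 to 141 CPM and Car2 at 180.2 to 227 CPM. Trf, the iron carrier transferrin, was at 197 to 239.7 CPM and Apod at 176 to 211 CPM. Among receptors and others, Gpr37, an orphan receptor that restrains myelination, was at 55.5 to 71.5 CPM, Plekhb1 at 304 to 395 CPM, Cryab, a small heat shock protein, at 83.6 to 104 CPM, and Evi2a, a transmembrane protein whose gene lies within an intron of Nf1, at 17.3 to 21.1 CPM. Per length of exon, Plekhb1 was the highest of this role group and Ninj2 the lowest.

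Most of the 38 genes varied more between libraries of a group than other genes of like level. In residual SD, 29 of 38 lay above the median of genes within 0.5 log2 units of their own level. For Mbp it was 0.20 on the log2 scale, against a median of 0.09 at like level, and for Olig1 0.07 against 0.09. The median residual SD of the 38 genes was 0.13, against 0.12 for all genes tested, whatever their level. Ninj2, an adhesion protein listed at 0.706 to 1.57 CPM on 14 to 33 reads, and Ppp1r14a, an inhibitor of myosin phosphatase, were the most variable, with residual SDs of 0.33 and 0.28. Lpar1, a lysophosphatidic acid receptor, was the steadiest, at 0.06.

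Differences between groups were tested with limma on log2(CPM + 0.5), over all 15081 genes and in a single model of the 4 groups, and a gene was called at a Benjamini-Hochberg adjusted p under 0.05 with a fold change above 1.3. For E2 add-back in WT mice 0 of the 38 genes were called, against 0.0133% of all genes tested, and in OVX Het-Met mice 0 of 38, against 0%. Between genotypes, 0 of 38 were called under vehicle, against 0.00663% of all genes, and 0 under E2, against 0.0265%. The interaction, which asks whether the E2 effect differs between genotypes, called 0 of 38, against 0.0729%. At an unadjusted p under 0.05 the counts were 1, 0, 3, 1 and 2 of 38 in these 5 comparisons, against 4.04%, 5.45%, 10.7%, 11.7% and 5.42% of all genes. edgeR on the reads recovered from the CPM gave 1, 0, 4, 4 and 2, and DESeq2 gave 1, 0, 4, 3 and 3. The share of all genes at an unadjusted p under 0.05 was not counted for these methods. Both called 0 of 38 at the adjusted p. Of all 15081 genes, edgeR called 2, 0, 1, 14 and 13 and DESeq2 14, 6, 38, 29 and 38.

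How much of a change these libraries leave room for can be read from the confidence intervals. The 95% interval of the difference lay within a 1.3-fold change either way for 25 of 38 genes for E2 add-back in WT mice, against 54% of all genes, and for 31 of 38 for E2 add-back in Het-Met mice, against 65.5%. It did so for 26 of 38 between genotypes under each treatment, against 52.6% under vehicle and 52.5% under E2, and for 15 of 38 in the interaction, against 33.4%. For Mbp the intervals on the log2 scale were −0.46 to 0.17 for E2 in OVX WT mice and −0.28 to 0.24 for E2 in OVX Het-Met mice, wide enough to hold a 1.3-fold decrease in the first case, 0.38 on this scale.

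With E2 add-back in WT mice, 18 genes had a log2 fold change above 0 and 20 below 0 (median −0.0096, against a median of −0.0026 and 49% above 0 for all genes). Of the mature genes, 11 were above 0 and 17 below, and their range was −0.28 to 0.23. Without replicate 1 of WT vehicle mice 28 of the 38 were above 0 and 10 below, and without replicate 3 of that group 11 and 27. With the mean level of the choroid plexus markers as a covariate the split was 25 and 13. The libraries did not overlap for 9 of the 38, against 31.8% of all genes (15.6% higher and 16.2% lower with E2). Gpr17, Ugt8a and Gpr37 lay higher with E2. Bcas1, Ermn, Tspan2, Gjb1, Qdpr and Lpar1 lay lower.

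Qdpr, dihydropteridine reductase, which recycles the tetrahydrobiopterin used in making monoamines (mm10 chromosome 5, 45434021 to 45450236), had the smallest p of the 38 genes for E2 in OVX WT mice. Its values were 132 and 125 CPM in WT vehicle, 106 and 105 CPM in WT E2, 135, 127 and 126 CPM in Het-Met vehicle and 120.0, 144 and 119.5 CPM in Het-Met E2 libraries. Both WT E2 libraries lay below the other 8 libraries, at a log2 fold change of −0.28 (standard error 0.09, unadjusted p = 0.0073, limma adjusted p = 0.821). In OVX Het-Met mice the difference with E2 was −0.02 (standard error 0.07) and the groups overlapped.

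E2 add-back in Het-Met mice gave 26 of the 38 genes a log2 fold change above 0 and 12 below (median 0.051), against 51.8% above 0 and a median of 0.0044 for all genes. In 0 of 38 were the libraries of the 2 groups separated, against 10.3% of all genes (5.15% higher and 5.11% lower). Without replicate 2 of E2-treated mice, 13 were above 0 and 25 below, and without replicate 1 or 3 of that group 31 and 7. The 12 choroid plexus markers were below 0 in 12 of 12 here, and with their mean level as a covariate 18 of the 38 genes were above 0 and 20 below. The largest differences were those of Ppp1r14a (0.31, standard error 0.18) and Nkx6-2 (0.30, standard error 0.15, limma adjusted p = 0.922).

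**Figure D3:**
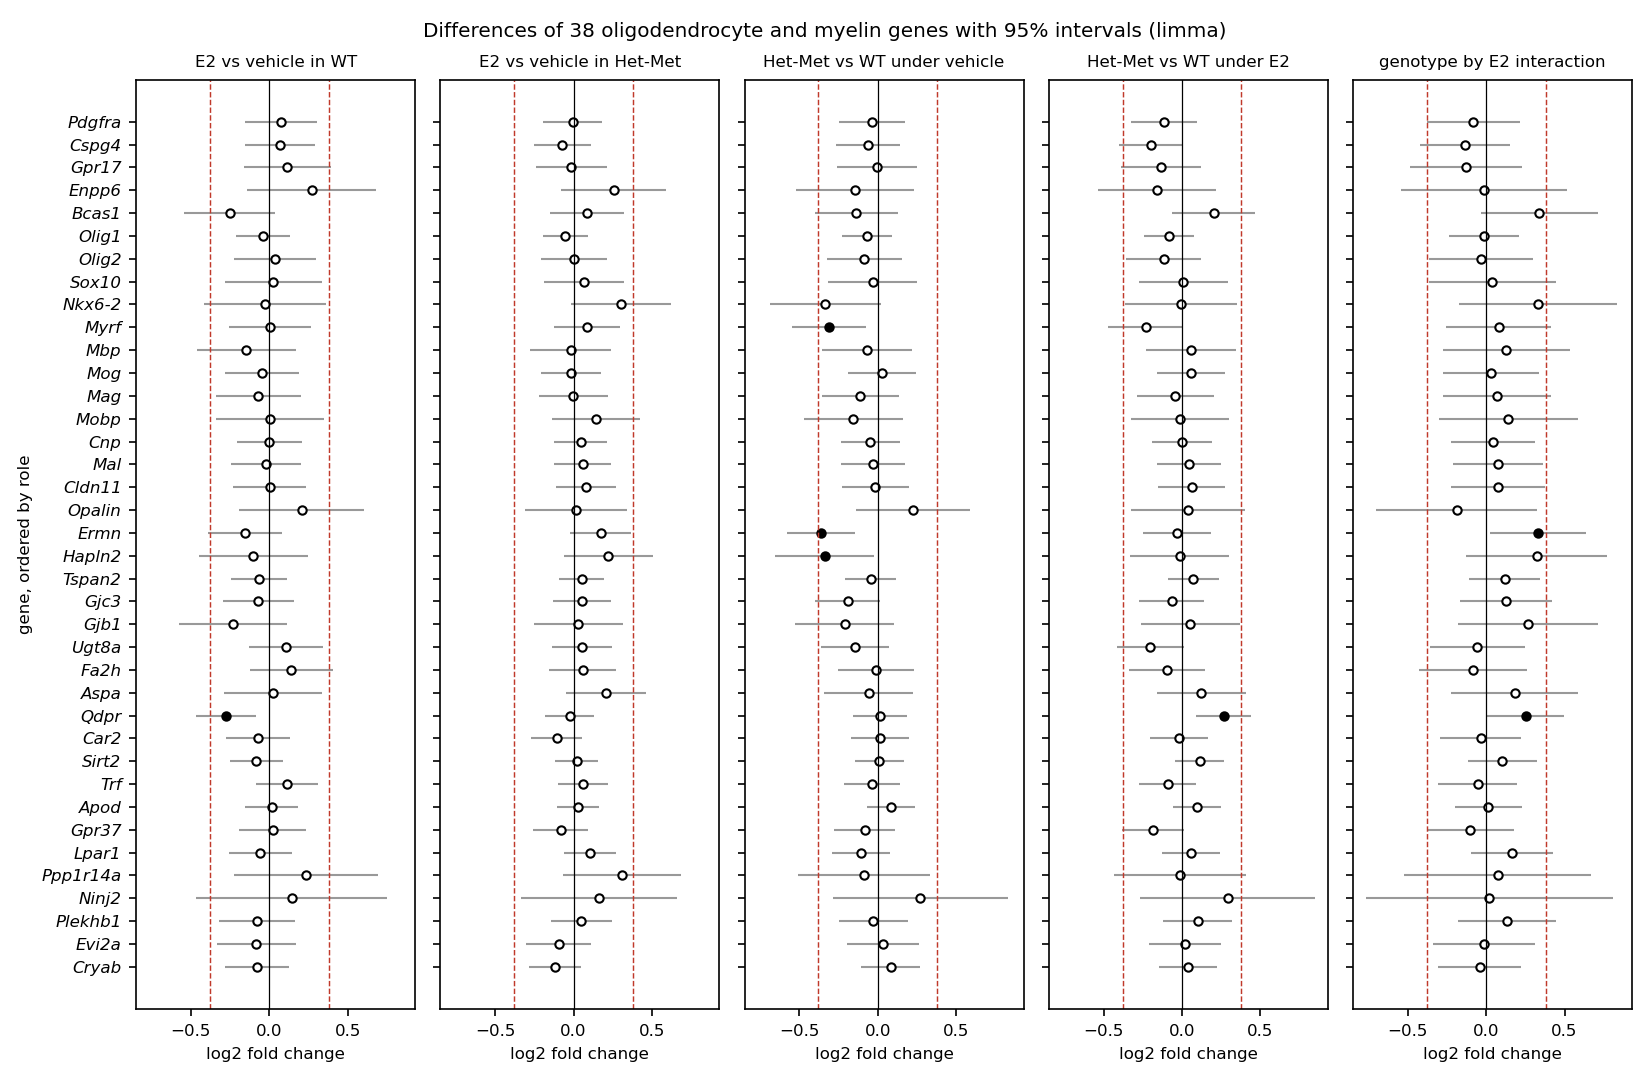
Log2 fold changes of the 38 genes (rows, by role) in the 4 pairwise comparisons and the interaction (panels), with points for estimates and bars for 95% confidence intervals from limma. The estimates spread around 0 in each panel, and 0 genes were called in any of the 5.

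Under vehicle, OVX Het-Met mice had 29 of 38 genes below and 9 above OVX WT mice, a median log2 fold change of −0.051, where all genes had 55.3% above 0 and a median of 0.020. All 5 transcription factors, all 3 markers of forming oligodendrocytes, both precursor markers and both gap junction genes were on the lower side, and the 8 genes of lipid synthesis and metabolism were split 4 and 4. The libraries were separated for 5 genes, against 24.7% of all genes (14.8% higher and 9.89% lower). All 5 were lower in OVX Het-Met mice, namely Ermn, Gjc3, Ugt8a, Gpr37 and Lpar1. Without replicate 1 of WT vehicle mice, which had the highest mature sum of all, 21 genes were above 0 and 17 below. Without replicate 2 of Het-Met vehicle mice the split was 14 and 24. The 12 choroid plexus markers were higher in Het-Met vehicle mice in 12 of 12, with sums of 154 and 1092 CPM against 3274, 1469 and 1938 CPM. With their mean level as a covariate 19 of the 38 genes were above and 19 below 0.

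Ermn, ermin, a cytoskeletal protein at the edges of the myelin sheath, had the smallest p of the 38 genes in this comparison. It lies on mm10 chromosome 2, 58045113 to 58052864, and was read at 70.6 and 69.3 CPM in WT vehicle, 61.1 and 64.3 CPM in WT E2, 55.2, 50.8 and 57.3 CPM in Het-Met vehicle and 54.9, 72.4 and 58.0 CPM in Het-Met E2 libraries. All 3 Het-Met vehicle libraries lay below both WT vehicle libraries, with means of 54.4 ± 3.31 CPM (SD, n = 3) and 69.96 ± 0.900 CPM (SD, n = 2). The log2 fold change was −0.36 (standard error 0.10, unadjusted p = 0.0029, limma adjusted p = 0.330). Under E2 the genotypes overlapped (−0.03, standard error 0.10), with replicate 2 of Het-Met mice the highest of all 10 libraries. The interaction was 0.33 (standard error 0.14, unadjusted p = 0.0368, limma adjusted p = 0.845). Without that library the interaction was 0.21. Leaving out any 1 library kept the difference under vehicle between −0.40 and −0.31. Ermn shares its chromosome with Bdnf, the knock-in gene, and lies 51.6 Mb from it. Any part of the knock-in locus in its level was not tested. The other 2 of the 38 genes on chromosome 2, Mal at 17.9 Mb and Bcas1 at 60.6 Mb, overlapped between genotypes under both treatments.

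As the gene with the smallest p between genotypes, Ermn is shown with the 250 bases before its start site (GRCm38.p6, chr2:58052865-58053114, minus strand, 5′ to 3′, outside annotated exons), in which capitals mark the ACAATG letters of a SOX site.
Ermn: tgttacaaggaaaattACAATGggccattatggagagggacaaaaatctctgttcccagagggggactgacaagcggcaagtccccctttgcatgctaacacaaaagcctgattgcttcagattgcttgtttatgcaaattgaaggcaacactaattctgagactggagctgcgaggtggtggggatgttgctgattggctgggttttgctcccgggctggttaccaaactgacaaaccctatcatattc

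Because E2 acts through estrogen receptors that bind DNA, the promoters of these genes were searched for the letters of the estrogen response element. RefSeq windows of GRCm38.p6, from 250 bases before to 50 bases after the start site, were matched for 27 of the 38 genes. On both strands, the full palindrome, GGTCA and TGACC with 3 bases between them, was in 0 of 27 windows, against 0.0740% of all genes with a window, and its half-site AGGTCA was in 1 of 27, that of Gjb1, a gap junction gene, against 18.1%. The SOX letters ACAAAG and ACAATG were in 9 of 27 and 8 of 27, against 21.0% and 14.3%, and the E-box CAGNTG of OLIG factors in 18 of 27, against 54.6%. A palindrome that follows an A also holds the half-site, and the other letters were searched apart. A match of letters is a description of the window and not a binding site.

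Hapln2 encodes a hyaluronan link protein of the matrix at nodes of Ranvier (mm10 chromosome 3, 88021750 to 88027583). It was at 24.1 and 17.0 CPM in WT vehicle, 18.6 and 19.0 CPM in WT E2, 16.4, 14.3 and 17.2 CPM in Het-Met vehicle and 17.6, 22.1 and 16.5 CPM in Het-Met E2 libraries. Replicate 1 of WT vehicle and replicate 2 of Het-Met E2 mice were its highest libraries. The log2 fold change between genotypes under vehicle was −0.34 (standard error 0.15, unadjusted p = 0.0382, limma adjusted p = 0.449), and it was −0.09 without that WT library. Myrf differed by −0.31 under vehicle (standard error 0.11, unadjusted p = 0.0136, limma adjusted p = 0.390) and by −0.23 under E2 (standard error 0.11, limma adjusted p = 0.437). Leaving out any 1 library kept Myrf between −0.45 and −0.23 under vehicle and between −0.29 and −0.18 under E2.

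**Figure D4:**
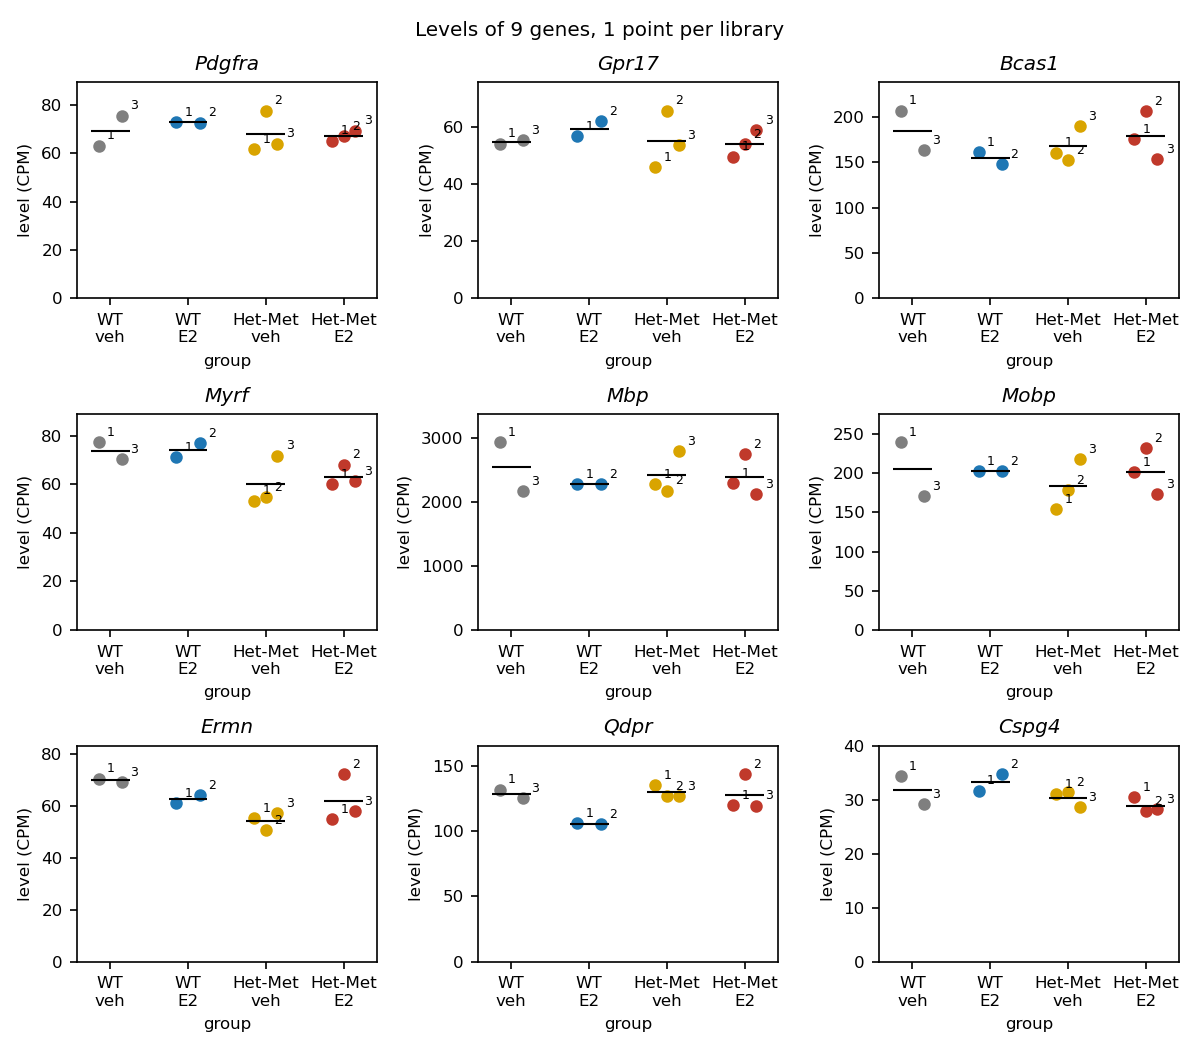
CPM of 9 genes (panels, linear axes starting at 0) in each of the 10 libraries, with points for libraries, small digits for replicate numbers and bars for group means. Ermn lies at 50.8 to 57.3 CPM in the 3 Het-Met vehicle libraries and at 69.3 and 70.6 CPM in the WT vehicle libraries; Qdpr lies at 105 and 106 CPM in the WT E2 libraries.

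Under E2, 19 of the 38 genes were above and 19 below 0 in OVX Het-Met against OVX WT mice, with a median of −0.0028, against 57.3% above 0 and a median of 0.028 for all genes. Without replicate 2 of Het-Met E2 mice 10 were above 0 and 28 below, and without replicate 3 of that group 27 and 11. With the choroid plexus covariate the split was 10 and 28. The libraries were separated for 7, against 35.8% of all genes (21.1% higher and 14.7% lower). Aspa, Qdpr and Sirt2 lay higher. Pdgfra, Cspg4, Enpp6 and Myrf lay lower. The difference was −0.12 for Pdgfra (standard error 0.10, limma adjusted p = 0.662) and −0.20 for Cspg4 (standard error 0.10, limma adjusted p = 0.435). Qdpr differed by 0.27 (standard error 0.08, unadjusted p = 0.00523, limma adjusted p = 0.334). The vehicle-treated and E2-treated libraries that make up the genotype comparisons are also those of the E2 comparisons, so the Qdpr values of WT E2 mice enter both of its small p-values. Its interaction was 0.25 (standard error 0.12, unadjusted p = 0.0448, limma adjusted p = 0.887).

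In the interaction, 24 of 38 genes were above 0 and 14 below (median 0.058, against 51.4% above 0 and a median of 0.0051 for all genes). Of the 11 genes of myelin proteins, 10 were above 0, with Opalin the exception at −0.19 (standard error 0.24). Both gap junction genes were above 0 as well, the lipid and metabolic genes were split 4 and 4, and the receptors and others 4 and 3. Of the earlier genes, 3 of 5 transcription factors, 1 of 3 forming markers and 0 of 2 precursor markers were above 0. Without replicate 1 of WT vehicle mice the count over the 38 was 15 above and 23 below, without replicate 2 of Het-Met E2 mice 16 and 22, and with the choroid plexus covariate 14 and 24. Without replicate 3 of WT vehicle mice it was 31 and 7, and without replicate 2 of WT E2 or replicate 3 of Het-Met E2 mice 29 and 9.

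Side by side, replicate 1 of WT vehicle mice had the lowest choroid plexus sum, 154 CPM, and the highest mature sum, 5796 CPM. The Het-Met E2 library with the highest mature sum, replicate 2, had 442 CPM of choroid plexus markers, but replicate 3 of the same group, with 267 CPM, had the lowest mature sum of all 10 libraries, 4627 CPM. The sums of the other marker lists varied less than that of choroid plexus, and 4 of them (meningeal, endothelial and mural, ependymal and thalamic) varied more than the mature sum. The 10 neuronal genes ran from 13111 to 14193 CPM, 10 astrocyte genes from 5759.7 to 7067 CPM, 10 microglial genes from 455 to 533 CPM, 10 endothelial and mural genes from 325 to 429 CPM and 10 meningeal fibroblast genes from 309 to 451 CPM. The 8 ependymal genes ran from 22.0 to 41.0 CPM and the 8 thalamic genes from 117 to 173 CPM. None of these markers was at 0 in any library, and their part in the levels of the 38 genes was not tested.

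**Figure D5:**
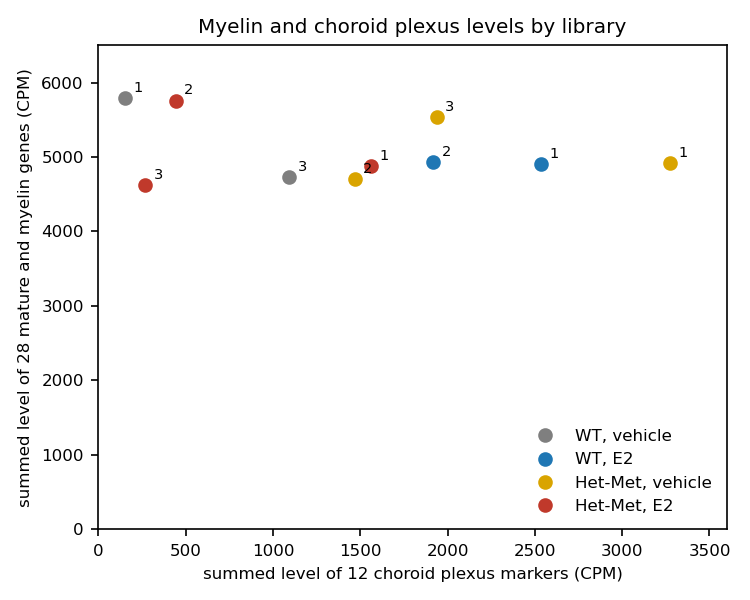
Summed CPM of the 28 mature oligodendrocyte and myelin genes (vertical) against summed CPM of the 12 choroid plexus markers (horizontal) in the 10 libraries, coloured by group and labelled by replicate number, on linear axes starting at 0. The library with the lowest choroid plexus sum, 154 CPM, has the highest myelin sum, while a library at 267 CPM has the lowest.

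Beside these 38, of 25 other genes of the lineage, 0 were called in any comparison. With E2, 14 were above 0 and 11 below in OVX WT mice, and 20 and 5 in OVX Het-Met mice, against 49% and 51.8% of all genes above 0. Between genotypes, 10 were above 0 and 15 below under vehicle and 13 and 12 under E2, against 55.3% and 57.3%, and the interaction had 13 and 12, against 51.4%. At an unadjusted p under 0.05 the counts of 25 were 0, 1, 3, 3 and 0 in these comparisons, against 4.04%, 5.45%, 10.7%, 11.7% and 5.42% of all genes. The gene with E2 in OVX Het-Met mice was Tcf7l2, a Wnt effector of maturing oligodendrocytes that is also a marker of thalamic neurons, at 7.26 and 7.88 CPM in WT vehicle, 7.45 and 8.42 CPM in WT E2, 9.16, 6.71 and 7.56 CPM in Het-Met vehicle and 9.35, 12.03 and 12.8 CPM in Het-Met E2 libraries. All 3 Het-Met E2 libraries exceeded the vehicle-treated Het-Met ones, as in 5.15% of all genes tested. The log2 fold change was 0.52 (standard error 0.14, limma adjusted p = 0.710). The 8 thalamus markers summed to 132, 148 and 173 CPM in these Het-Met E2 libraries against 147, 141 and 131 CPM under vehicle. Their part in the Tcf7l2 level was not tested.

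Plxnb3, a semaphorin receptor, was at 41.7 and 29.2 CPM in WT vehicle, 29.4 and 32.1 CPM in WT E2, 27.3, 24.5 and 30.4 CPM in Het-Met vehicle and 33.1, 32.6 and 29.1 CPM in Het-Met E2 libraries. Its log2 fold change between genotypes under vehicle was −0.35 (standard error 0.13, limma adjusted p = 0.416), and the libraries overlapped. Zfp536, a zinc finger gene of early lineage cells and some neurons, was at 9.11 and 14.7 CPM in WT vehicle, 15.2 and 14.999 CPM in WT E2, 6.07, 11.5 and 10.1 CPM in Het-Met vehicle and 10.96, 10.9 and 6.97 CPM in Het-Met E2 libraries. Under E2 every Het-Met library was below both WT libraries (−0.65, standard error 0.25, limma adjusted p = 0.363), as in 14.7% of all genes tested. The Zfp536 level also varied 2.50-fold over all libraries.

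Of 20 tested genes for signals that act on precursors and myelination, 0 were called. The lowest adjusted p belonged to Ntf3, the neurotrophin that binds TrkC and also acts on neurons, at 5.41 and 4.61 CPM in WT vehicle, 5.34 and 6.23 CPM in WT E2, 9.25, 9.54 and 9.51 CPM in Het-Met vehicle and 7.98, 8.53 and 7.40 CPM in Het-Met E2 libraries. Each Het-Met library exceeded each WT library, 9.25 to 9.54 against 4.61 and 5.41 CPM under vehicle (log2 fold change 0.85, standard error 0.13, limma adjusted p = 0.0949) and 7.40 to 8.53 against 5.34 and 6.23 CPM under E2 (0.43, standard error 0.13, limma adjusted p = 0.335). Pdgfa, the ligand of the precursor receptor, was at 22.9 and 21.9 CPM in WT vehicle, 21.0 and 22.7 CPM in WT E2, 27.7, 23.6 and 22.8 CPM in Het-Met vehicle and 26.8, 26.1 and 27.2 CPM in Het-Met E2 libraries, which put all 3 Het-Met libraries above both WT libraries under E2 (0.28, standard error 0.10, limma adjusted p = 0.349). Erbb4, a neuregulin receptor most abundant in interneurons, was at 10.4 and 20.8 CPM in WT vehicle, 22.9 and 18.9 CPM in WT E2, 8.73, 17.7 and 7.84 CPM in Het-Met vehicle and 11.6, 11.3 and 9.11 CPM in Het-Met E2 libraries, with all 3 Het-Met libraries below both WT libraries under E2 (−0.94, standard error 0.29, limma adjusted p = 0.334). Of all genes tested, 14.8% had every Het-Met library above every WT library under vehicle and 21.1% under E2. The reverse held for 14.7% under E2. Bdnf itself averaged 36.9 CPM, and the estrogen receptor genes Esr1 and Esr2 averaged 5.13 and 0.539 CPM over the 10 libraries.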

How the data were processed

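RNA of the vHpc was read in 10 libraries, each a pool of 2 animals. The authors trimmed and filtered the 75-bp single-end reads of stranded libraries, mapped them with TopHat2 to the mm10 genome, counted reads by gene symbol and deposited CPM, reads per 1000000 reads counted on genes. The annotation, and whether strand was used in counting, were not given in the sources used here, so genes that overlap others, such as Evi2a within an intron of Nf1, and genes with near-identical copies are uncertain. Dividing by the value of 1 read gave whole numbers for 100% of values (tolerance 0.01), which returned the reads, and 3 reads correspond to 0.129 to 0.151 CPM. Depth was 19820184 to 23267410 reads on genes, and replicates differed by more than sampling noise (chi-square per degree of freedom 3.29 to 13.5).

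Values of log2(CPM + 0.5) were taken for the 15081 genes averaging 0.5 CPM or more and were fitted with limma 3.58.1 in R 4.3.3, with group means, an intensity trend and two-sided tests. This scale understates the change of low genes. The limits of 0.05 for the adjusted p-value and 1.3 for the fold change are those named in the methods of the study. Its figure legends give a Z-score under 0.05 from other software, so its gene counts are not comparable with these. Libraries were grouped by the labels, and p-values measure only the spread between pools. Alternatives were a pseudocount of 0.1 or 1, a minimum mean of 2 CPM or none, quantile normalization, median-of-ratios scaling, replicate number as a block, fits restricted to the compared libraries, the mean log2 level of the choroid plexus markers as a covariate, edgeR 4.0.16 and DESeq2 1.42.0 on the recovered reads, and each library left out in turn. Figures were drawn with matplotlib 3.10.9.

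Genes named with all values are stage anchors, members with an unadjusted p under 0.05, and up to 3 genes of each further list by the smallest such p. Genes, lists and alternatives were chosen with earlier results of these data known, and the hippocampal subfield list was added after values had been seen. Gene lengths and positions came from GENCODE vM21 (GRCm38), matched for 23376 of 24421 symbols, and promoters from RefSeq (GRCm38.p6). Fgf2 was below the minimum and was not tested among the signals. The human libraries and behaviour were not analysed here.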

Additional observations from a re-analysis of the deposited data

How the results depend on the processing

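The count of called genes among the 38 was 0 in all 5 comparisons under each alternative run, including edgeR, DESeq2 and each library left out in turn. Counts at an unadjusted p under 0.05 were compared over the alternatives that kept 2 or more libraries in every group. They ran from 1 to 2 for E2 in OVX WT mice and from 0 to 4 for E2 in OVX Het-Met mice. Between genotypes they ran from 1 to 5 under each treatment, and for the interaction from 0 to 3. The share of all genes at that p was not counted for the alternatives. Calls over all genes tested ran in these 5 comparisons from 0 to 16, 0 to 6, 1 to 38, 0 to 52 and 0 to 71. The minimum of 2 CPM removed Ninj2, and the interaction could not be computed from only the libraries of a pairwise comparison. The median log2 fold change of the 38 genes moved by more than the spread between replicates (0.086) in 4 cases. Between genotypes under E2 it was −0.0028, and −0.094 with the choroid plexus covariate and −0.092 without replicate 2 of E2-treated OVX Het-Met mice. For the interaction it was 0.058, and −0.11 with the covariate and −0.042 without replicate 1 of vehicle-treated OVX WT mice. With each library left out in turn it ranged from −0.095 to 0.067 for E2 in OVX WT mice, from −0.021 to 0.097 for E2 in OVX Het-Met mice, from −0.12 to 0.033 between genotypes under vehicle, from −0.092 to 0.067 under E2 and from −0.042 to 0.14 for the interaction. The cause of these shifts was not tested. Where 1 library was left of a group, it was assumed to vary like the others. Of 85 single-gene values, none of them called, the covariate changed the sign of 30, leaving out replicate 1 of vehicle-treated OVX WT mice 23, leaving out each of the other libraries 2 to 12, the replicate block 10, edgeR and DESeq2 5 each and either scaling 4. The replicate numbers did not pair the libraries, since deviations from group means correlated between −0.17 and 0.083 for libraries of the same number, and a block for the number gave medians of −0.072, 0.051, −0.074, 0.040 and 0.096 with 0 calls. A change in a low gene such as Ninj2, at 14 to 33 reads, was not detectable at this depth unless large.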
